A study of Rattus norvegicus with 9 samples.

Results

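The miR-17/92 and miR-106b/25 clusters are 2 groups of microRNA (miRNA) hairpins that are each cut from 1 primary transcript. Their mature products were picked out by name, and all 10 listed members were present among the 1759 small RNA entries, of which 764 are miRNAs. Small RNAs of rat (Rattus norvegicus) striatum, the input nucleus of the basal ganglia, were sequenced in 9 libraries, 3 from each of 3 groups. The MMT group received the manganese compound methylcyclopentadienyl manganese tricarbonyl at 4 mg/kg in corn oil, which carries about 1 mg/kg of manganese. The MnCl2 group, the positive control, received manganese chloride tetrahydrate at 200 mg/kg in saline, and the control group received corn oil alone at 1 ml/kg. All were dosed by stomach tube on 6 days a week for 8 weeks, starting at an age of 8 weeks. The series used 18 rats, 9 of each sex, and the labels give neither the sex behind a library nor whether it came from 1 rat or a pool. The p-values therefore set the difference between groups against how much libraries of a group vary, and part of that variation may be technical. The vehicle of the MnCl2 group was saline at 10 ml/kg, so MnCl2 and its vehicle cannot be told apart in the comparisons that use this group.

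A mature miRNA recognises its target mRNAs mainly through its seed, bases 2 to 8 counted from the 5′ end, and lowers their translation and stability. The miR-17/92 cluster is transcribed under the control of Myc and is known for promoting cell division and survival, and in the brain it is best known from dividing neural progenitors. Known targets include the cell cycle inhibitor Cdkn1a and the death-promoting Bcl2l11. The miR-106b/25 cluster is a related copy that lies inside Mcm7, a gene for a subunit of the replicative helicase.

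The members fall into 4 guide-strand seed groups, which decide what they can target, and the other arm of the miR-18a hairpin. The sequences below are those deposited with the counts, written 5′ to 3′ with the seed in capitals, and all 10 were identical to RefSeq's mature miRNAs (GRCr8). The first 4 share the miR-17 seed, the next is miR-18a, then come the pair with the miR-19 seed and the pair with the seed of miR-25 and miR-92a, and last the other arm of miR-18a. The prefix rno- marks rat and is left out after this paragraph.
rno-miR-17-5p: cAAAGTGCttacagtgcaggtag
rno-miR-20a-5p: tAAAGTGCttatagtgcaggtag
rno-miR-93-5p: cAAAGTGCtgttcgtgcaggtag
rno-miR-106b-5p: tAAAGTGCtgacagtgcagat
rno-miR-18a-5p: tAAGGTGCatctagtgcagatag
rno-miR-19a-3p: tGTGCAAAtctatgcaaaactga
rno-miR-19b-3p: tGTGCAAAtccatgcaaaactga
rno-miR-25-3p: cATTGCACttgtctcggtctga
rno-miR-92a-3p: tATTGCACttgtcccggcctg
rno-miR-18a-3p: aCTGCCCTaagtgctccttct

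Within a seed group the members differ by few bases. Counted from the 5′ end, miR-19b-3p and miR-19a-3p differ by C11T alone, and miR-17-5p and miR-20a-5p by C1T and C12T. The seed of miR-18a-5p differs from that of miR-17-5p by A4G, and no other miRNA entry carried it. Of the related entries outside the 2 clusters, miR-20b-5p carried the miR-17 seed, and miR-32-5p, miR-92b-3p and miR-363-3p carried that of miR-25. How reads that fit several entries were placed is not given in the sources used here, so the split between such close members is uncertain. No entry shared more than 13 bases in a row with a member or 11 with its complement.

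RefSeq places the members on GRCr8, a later build than the rn6 of the submitters' notes. There the 6 hairpins of miR-17/92 lie on the plus strand within 785 bases at chr15:98587848-98588632. Their order is miR-17, miR-18a, miR-19a, miR-20a, miR-19b-1 and miR-92a-1, and no other gene annotated there covers them. The miR-106b, miR-93 and miR-25 hairpins lie in that order on the minus strand of chromosome 12 (chr12:22156641-22157123 up to the end of mature miR-106b-5p), within Mcm7 and on its strand. Second copies of miR-19b and miR-92a lie at chrX:137342928-137343153, and the deposited entries of miR-17-5p, miR-19b-3p and miR-92a-3p each name a pair of hairpins, so their counts cannot be assigned to 1 locus. The miR-18a hairpin is shown because both its arms are members. Capitals mark the 5p arm and then the 3p arm in the RefSeq sequence (chr15:98587984-98588079, plus strand, GRCr8).
miR-18a hairpin: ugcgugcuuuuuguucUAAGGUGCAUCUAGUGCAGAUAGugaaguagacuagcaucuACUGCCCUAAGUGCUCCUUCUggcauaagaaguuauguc

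Library totals ran from 583045 counts in control 3 to 2012769 in control 1, and miRNAs took 56.5% to 64.1% of them. Together the 10 members held 1818 to 6858 counts, or 0.521% to 0.633% of a library's miRNA counts. As the tissue label implies, 6 of 6 neuron-enriched miRNAs (miR-124, miR-128, miR-137, miR-138, miR-218a and miR-9a) were found in every library, and summed to 55831 to 73940 CPM in MMT, 57498 to 71853 in MnCl2 and 54154 to 74066 in control libraries. CPM are counts divided by the library total, times 1000000, after TMM scaling between libraries. In bulk tissue, fewer cells of a type and less RNA per cell cannot be told apart. In MnCl2 1 the 4 miRNAs of endothelium and vessel wall summed to 30784 CPM, against 14615 to 20586 in the other 8 libraries, and the 8 blood miRNAs to 1812 CPM, against 926.5 to 1344. Of the blood list, miR-486 was at 0 in at least 1 library. The pair of choroid plexus miRNAs summed to 219.8 to 1936 CPM in MMT, 243.5 to 1172 in MnCl2 and 356.1 to 1050 in control libraries, and the groups also overlapped in muscle and microglial markers.

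miR-93-5p was the most abundant member in each of the 9 libraries. Its level was 1390, 1296 and 1305 CPM in the MMT libraries, 1313, 1059 and 1466 in the MnCl2 libraries and 1689, 1087 and 1136 in the control libraries. It ranked 64 among the 764 miRNA entries by mean level. A read spans a whole mature miRNA of 21 to 23 bases, so levels were not divided by length. Control 1, the deepest library, had the highest level, and the 3 groups overlapped.

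Next came miR-17-5p, miR-19b-3p and miR-25-3p, at ranks 102, 103 and 104, whose order was not the same in every group. miR-17-5p, the founding member of the seed group, was at 519, 530 and 729 CPM in MMT, 900, 457 and 622 in MnCl2 and 499, 560 and 437 in control libraries. miR-19b-3p, which shares its seed with miR-19a-3p, was at 528, 421 and 705 CPM in MMT, 888, 453 and 548 in MnCl2 and 588, 593 and 444 in control libraries. Both were highest in MnCl2 1, and in both the groups overlapped. miR-25-3p was at 593, 549 and 585 CPM in MMT, 558.5, 392 and 569 in MnCl2 and 687, 440.2 and 435 in control libraries. Over the 9 libraries miR-17-5p exceeded miR-19b-3p in 5, and miR-19b-3p exceeded miR-25-3p in 5, so these neighbours did not differ beyond their spread.

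The remaining members were scarcer and kept a steadier order. Each of miR-25-3p, miR-20a-5p, miR-19a-3p and miR-106b-5p exceeded the next in that order in 9 of 9 libraries. Over the libraries miR-20a-5p ran from 126 to 264 CPM, miR-19a-3p from 72.3 to 148 and miR-106b-5p from 57.8 to 113. miR-18a-5p (11.7 to 42.6 CPM) and miR-92a-3p (14.9 to 30.3 CPM) were close, with miR-18a-5p above in 4 of 9 libraries, and miR-18a-3p was lowest in all 9.

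The pair with the miR-25 seed was split unevenly between the clusters. miR-92a-3p, which in rat hippocampal neurons is known to repress the AMPA receptor subunit Gria1, had only 200 counts in all libraries, against 5273 for miR-25-3p. The ratio of miR-25-3p to miR-92a-3p was 32.2 ± 6.76 in MMT, 20.1 ± 6.2 in MnCl2 and 27.7 ± 12.6 in control libraries (SD, n = 3 each). Some other members of the miR-92a-3p cluster were more abundant, with 5523 counts for miR-17-5p, 5528 for miR-19b-3p, 1939 for miR-20a-5p and 922 for miR-19a-3p. Others were not, with 230 for miR-18a-5p and 55 for miR-18a-3p. The entries of miR-17-5p, miR-19b-3p and miR-92a-3p each name a pair of hairpins, so their counts cannot be tied to the cluster alone.

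By seed, the miR-17 group of 4 members held 61% to 65% of the members' counts in every library. The miR-19 pair held 16.1% to 21.3% in MMT, 17.8% to 24.5% in MnCl2 and 17.3% to 23% in control libraries. The miR-25 pair held 15.7% to 17.8% in MMT, 13.8% to 16.4% in MnCl2 and 14.9% to 18.4% in control libraries. The groups overlapped in the share of each of these 3 seeds. miR-18a-5p held 0.744% to 1.23% in MMT, 0.491% to 0.713% in MnCl2 and 0.306% to 0.825% in control libraries, and the MMT and control ranges overlapped.

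**Figure D1:**
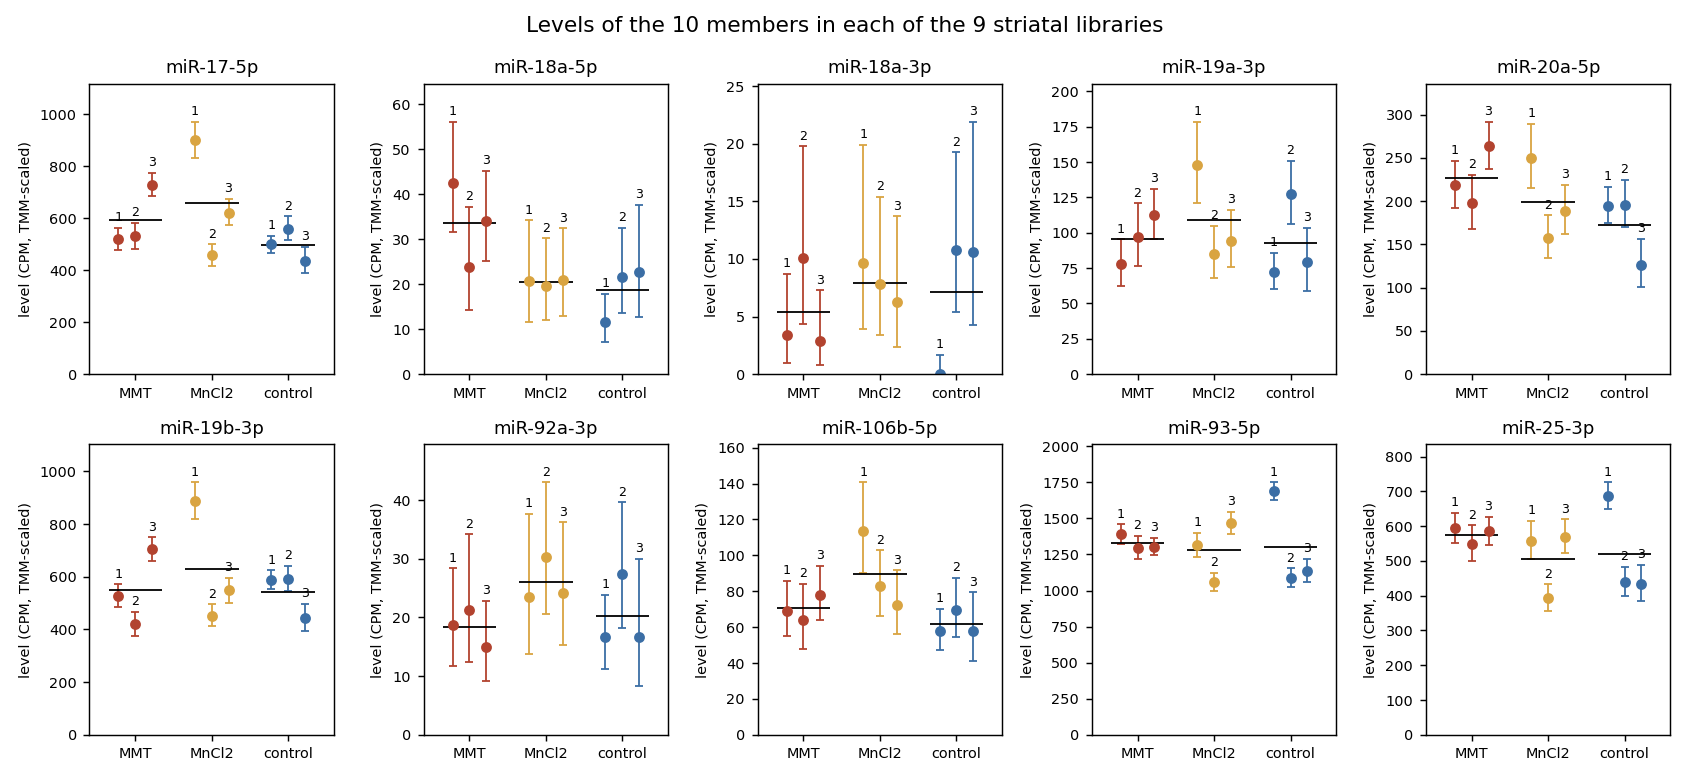
Level of each member in CPM (linear axis from 0) in the 3 MMT, 3 MnCl2 and 3 control libraries, numbered by replicate, with 95% Poisson intervals (at 0 counts, the limit of 3 counts) that cover counting error only and a line at each group's mean. miR-18a-5p stands at 23.9 to 42.6 CPM in MMT libraries, above the 11.7 to 22.8 CPM of control libraries, while miR-93-5p and miR-17-5p overlap between groups.

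The comparison of MMT with control set the organic compound beside its own vehicle. The clearest separation was that of miR-18a-5p, which in rat brain is known to repress the glucocorticoid receptor Nr3c1. It was at 42.6, 23.9 and 34.1 CPM in the MMT libraries (50, 19 and 48 counts), against 11.7, 21.5 and 22.8 CPM in the control libraries (21, 22 and 15 counts). All 3 MMT libraries lay above all 3 control libraries, but MMT 2 and control 3 were within counting error of each other. The group means were 33.5 ± 9.39 CPM in MMT and 18.7 ± 6.09 CPM in control libraries (SD, n = 3). The log2 fold change was 0.88 (SE 0.40, 95% interval 0.00 to 1.75), with an edgeR p of 0.0498 before adjustment and an adjusted p of 1.

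miR-20a-5p was the other member whose libraries did not overlap. It was at 218, 197 and 264 CPM in the MMT libraries, against 195, 196 and 126 CPM in the control libraries. The gap lay between MMT 2 and control 2 and was small beside the range of either group. Its log2 fold change was 0.39 (SE 0.22, 95% interval -0.09 to 0.86, edgeR adjusted p = 1), and 0.23 without control 3 or 0.26 without MMT 3. Among all entries tested, 1.8% had all MMT libraries above all control libraries, against 2 of the 10 members and 14 of the 615 miRNA entries.

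For the other 8 members the groups overlapped. miR-17-5p had a log2 fold change of 0.25 (95% interval -0.26 to 0.76), miR-106b-5p of 0.19 (-0.30 to 0.69) and miR-25-3p of 0.14 (-0.30 to 0.58). Single libraries moved these values. Without MMT 3, that of miR-17-5p was 0.07 and that of miR-106b-5p 0.10. That of miR-25-3p was 0.00 without control 2, 0.03 without control 3 and 0.40 without control 1 (edgeR adjusted p = 0.916, unadjusted 0.0379). Those of miR-93-5p, miR-19a-3p and miR-19b-3p were 0.03, 0.04 and 0.02, with intervals no wider than -0.57 to 0.65. miR-92a-3p and miR-18a-3p stood at -0.15 (-1.01 to 0.70) and -0.34 (-2.73 to 2.05). The narrowest interval was that of miR-93-5p (-0.37 to 0.43), the member with the most counts.

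In all, 8 of 10 members had a positive log2 fold change, with a median of 0.09, beside 353 of 615 miRNA entries with a median of 0.04 and 591 of 1113 entries with a median of 0.01. No member passed the edgeR test after adjustment, and 0% of all entries did (24 of 1113 at an unadjusted p under 0.05; DESeq2 called 0, with 23 at that level). At an unadjusted p under 0.05, 1 of 10 members was higher and none lower, where 0.18% of all entries were higher. With miRNAs scaled among themselves, which moves the median of all miRNAs to -0.10, the log2 fold change of miR-18a-5p was 0.73. Without control 1, the library with the lowest level, it was 0.62, and without MMT 1, the library with the highest, 0.67. The 8 blood miRNAs summed to 1081 to 1344 CPM in MMT and 926.5 to 1096 in control libraries, and the 3 oligodendrocyte miRNAs to 4741 to 5666 in MMT and 3406 to 5546 in control libraries. Their part in the miR-18a-5p values was not tested.

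The comparison of MnCl2 with control set the positive control group beside the corn oil group. Here miR-106b-5p, the first hairpin of its cluster and a known repressor of Cdkn1a, was the member whose libraries did not overlap. It was at 113, 83.1 and 72.4 CPM in the MnCl2 libraries, against 57.9, 69.5 and 57.8 CPM in the control libraries. All 3 MnCl2 libraries lay above the control libraries, but MnCl2 3 (69 counts) and control 2 (71 counts) were within counting error of each other. The group means were 89.6 ± 21.2 CPM in MnCl2 and 61.7 ± 6.71 CPM in control libraries (SD, n = 3). The log2 fold change was 0.53 (SE 0.23, 95% interval 0.04 to 1.03), with an edgeR p of 0.0377 before adjustment and an adjusted p of 0.843.

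That value leaned on the library MnCl2 1 and on the scaling. Without MnCl2 1, which also held the highest endothelial and blood marker sums, the log2 fold change was 0.33, and with miRNAs scaled among themselves it was 0.25. The part of those markers in it was not tested. Its neighbours in the cluster had log2 fold changes of -0.03 (95% interval -0.43 to 0.37) for miR-93-5p and -0.05 (-0.49 to 0.39) for miR-25-3p. The difference between these members was not tested.

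All 7 members of miR-17/92 had positive log2 fold changes in MnCl2 against control, and none passed the test. The value was 0.40 for miR-17-5p (95% interval -0.11 to 0.91), 0.36 for miR-92a-3p (-0.49 to 1.21) and 0.16 to 0.26 for the other 5. Without MnCl2 1, that of miR-17-5p was 0.11, that of miR-19b-3p -0.12, that of miR-19a-3p -0.05 and that of miR-20a-5p -0.01. Leaving out other libraries raised or lowered them, with miR-17-5p at 0.61 without MnCl2 2 (edgeR adjusted p = 0.998, unadjusted 0.0179) and 0.24 without control 3. miR-92a-3p ran from 0.20 without control 3 to 0.57 without control 2. The median of the 10 members was 0.22, with 8 positive, which is close to the 0.23 of all 615 miRNA entries (476 positive). All 1113 entries had a median of 0.06, with 638 positive. Scaling miRNAs among themselves moved the miRNA median to -0.05, and 5 of the 10 members then changed sign, among them miR-19b-3p (-0.09) and miR-20a-5p (-0.09).

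No member passed after adjustment, and edgeR called 0% of all entries (51 of 1113 at an unadjusted p under 0.05; DESeq2 called 0, with 69 at that level). At an unadjusted p under 0.05, 1 of 10 members was higher, where 1.44% of all entries were. By separation, 1 of 10 members had all MnCl2 libraries above all control libraries, where 4.76% of all entries had, among them 48 of the 615 miRNA entries.

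MMT was set against MnCl2 to compare the organic compound with the salt, at doses and in vehicles that differ. miR-18a-5p was at 42.6, 23.9 and 34.1 CPM in the MMT libraries, against 20.7, 19.6 and 21.0 CPM in the MnCl2 libraries. The groups did not overlap, but MMT 2 (19 counts) and MnCl2 3 (20 counts) were within counting error of each other. The 3 MnCl2 libraries (15, 20 and 20 counts) lay close together, well inside their counting error. The log2 fold change was 0.72 (SE 0.40, 95% interval -0.15 to 1.59, edgeR adjusted p = 0.981), and 0.52 without MMT 1. miR-92a-3p went the other way, at 18.8, 21.3 and 14.9 CPM in the MMT libraries, against 23.5, 30.3 and 24.1 CPM in the MnCl2 libraries. Its log2 fold change was -0.51 (SE 0.39, 95% interval -1.37 to 0.34, edgeR adjusted p = 0.981), on 11 to 31 counts a library over the study. The nearest libraries, MMT 2 and MnCl2 1, had 17 counts each and were within counting error of each other.

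Of the 10 members, 1 thus lay wholly above and 1 wholly below, where 4.31% of all entries lay above and 4.76% below. Among the 615 miRNA entries, 7 lay above and 42 below. The members' median was -0.17 with 4 positive, beside -0.19 with 167 of 615 positive among miRNAs and -0.06 with 466 of 1113 positive among all entries. edgeR called no member and 0% of all entries (22 at an unadjusted p under 0.05; DESeq2 called 0, with 34 at that level). The 3 comparisons share libraries, since each group serves in 2 of them, so their values are not independent. miR-18a-5p against control was 0.88 for MMT and 0.16 for MnCl2, and miR-106b-5p against control was 0.19 for MMT and 0.53 for MnCl2.

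**Figure D2:**
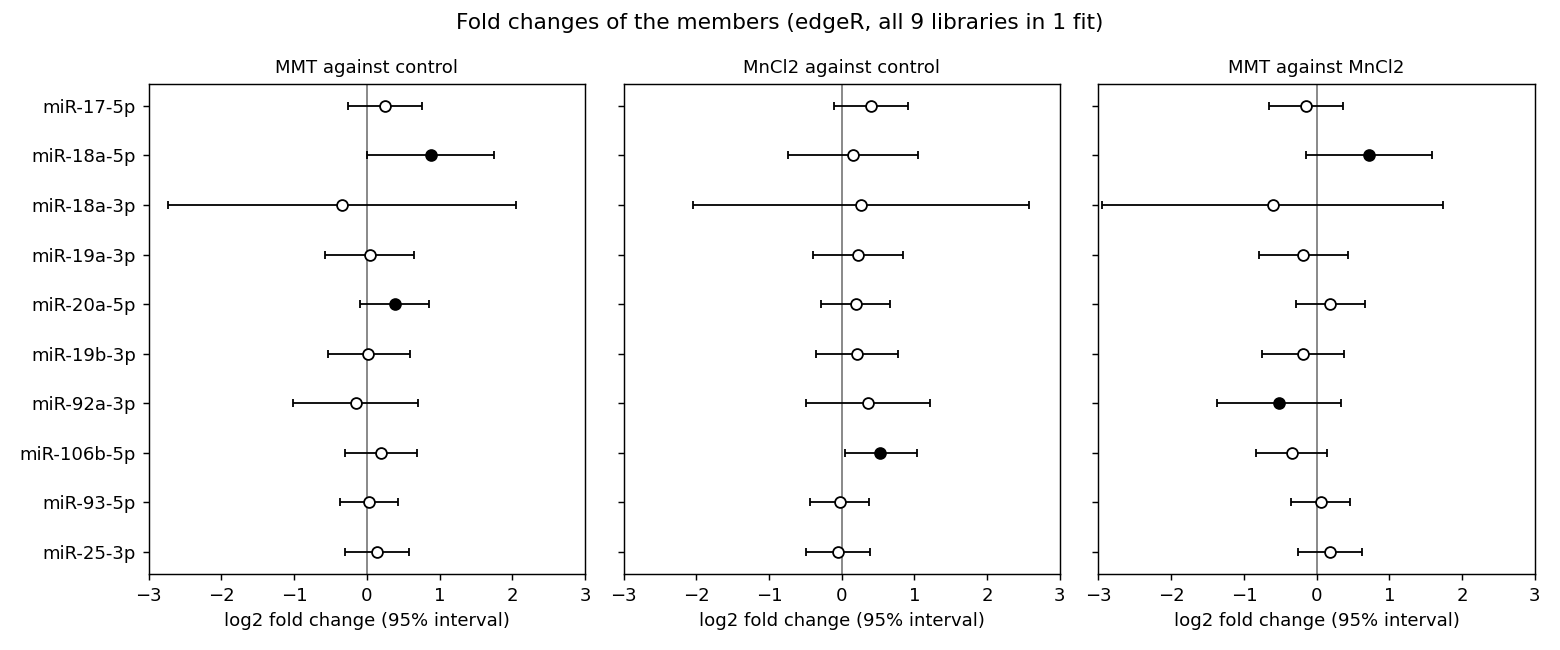
Log2 fold change of each member, in the order of the hairpins, in MMT against control, MnCl2 against control and MMT against MnCl2 (edgeR), with 95% intervals; filled points mark members whose libraries did not overlap. Of the 30 intervals, those of miR-18a-5p in MMT against control (0.00 to 1.75) and miR-106b-5p in MnCl2 against control (0.04 to 1.03) do not reach below 0 before adjustment.

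Members cut from 1 transcript need not be present in a fixed ratio, and the count ratio within a library does not depend on how libraries are scaled. The steadiest ratio was that of miR-93-5p to miR-25-3p, neighbours within Mcm7. It was 2.34, 2.36 and 2.23 in the MMT libraries, 2.35, 2.70 and 2.58 in the MnCl2 libraries and 2.46, 2.47 and 2.61 in the control libraries. Over the 9 libraries the SD of its log2 was 0.0884, where counting error alone gives 0.0771. All 3 MMT libraries lay below the control libraries and overlapped the MnCl2 libraries. MMT 2 (2.36) and control 1 (2.46) were within counting error of each other, and how many other pairs separate in this way was not counted. The lowest and highest ratios differed 1.21-fold, while the level of miR-93-5p itself ran from 1059 to 1689 CPM. The sequences of these 2 miRNAs share at most 4 bases in a row.

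Among the 21 pairs of the 7 members averaging at least 50 CPM, this ratio varied least. Among all 7021 pairs of the 119 miRNAs averaging at least 400 CPM, whose median SD was 0.241, 1.25% of pairs had a smaller SD. The pair was picked as the least variable of the members' pairs, so this share is not that of a pair chosen beforehand. In miR-17/92, miR-17-5p and miR-19b-3p were next, with an SD of 0.16 (18.8% of all such pairs had a smaller one) and ratios of 0.984, 1.26 and 1.03 in MMT, 1.01, 1.01 and 1.13 in MnCl2 and 0.849, 0.944 and 0.983 in control libraries. The control libraries lay at the low end, with control 3 and MMT 1 level.

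miR-106b, the remaining hairpin within Mcm7, varied more against its neighbours. The ratio of miR-93-5p to miR-106b-5p was 20.1, 20.2 and 16.7 in MMT, 11.6, 12.7 and 20.2 in MnCl2 and 29.2, 15.6 and 19.7 in control libraries. Its log2 had an SD of 0.401, where counting error alone gives 0.178. miR-106b-5p varied less against members on another chromosome. The SD was 0.217 for miR-17-5p (counting error 0.184) and 0.304 for miR-20a-5p (0.204), which carry its seed. It was 0.243 for miR-19a-3p (0.229) and 0.259 for miR-19b-3p (0.184), which do not. miR-93-5p also carries the seed, and the part of the seed in these SDs was not tested. miR-17-5p and miR-106b-5p share at most 9 bases in a row.

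Within miR-17/92, the ratio of miR-17-5p to miR-20a-5p was 2.38, 2.69 and 2.77 in MMT, 3.60, 2.90 and 3.29 in MnCl2 and 2.56, 2.86 and 3.46 in control libraries. The MMT libraries lay below the MnCl2 libraries and overlapped the control libraries. MMT 3 (2.77) and MnCl2 2 (2.90) were within counting error of each other. miR-17-5p exceeded miR-18a-5p by 18.6 ± 5.57 times in MMT, 32.1 ± 10.3 times in MnCl2 and 29.3 ± 12.1 times in control libraries (SD, n = 3 each). MMT libraries ran from 12.2 to 22.2, below the 23.4 to 43.4 of MnCl2 libraries, and overlapped the 19.1 to 42.7 of control libraries. Read against miR-17-5p, miR-18a-5p thus no longer separated MMT from control. Between MMT and MnCl2 the nearest libraries, MMT 2 and MnCl2 2, had 19 and 20 counts of miR-18a-5p, and their ratios were within counting error of each other.

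**Figure D3:**
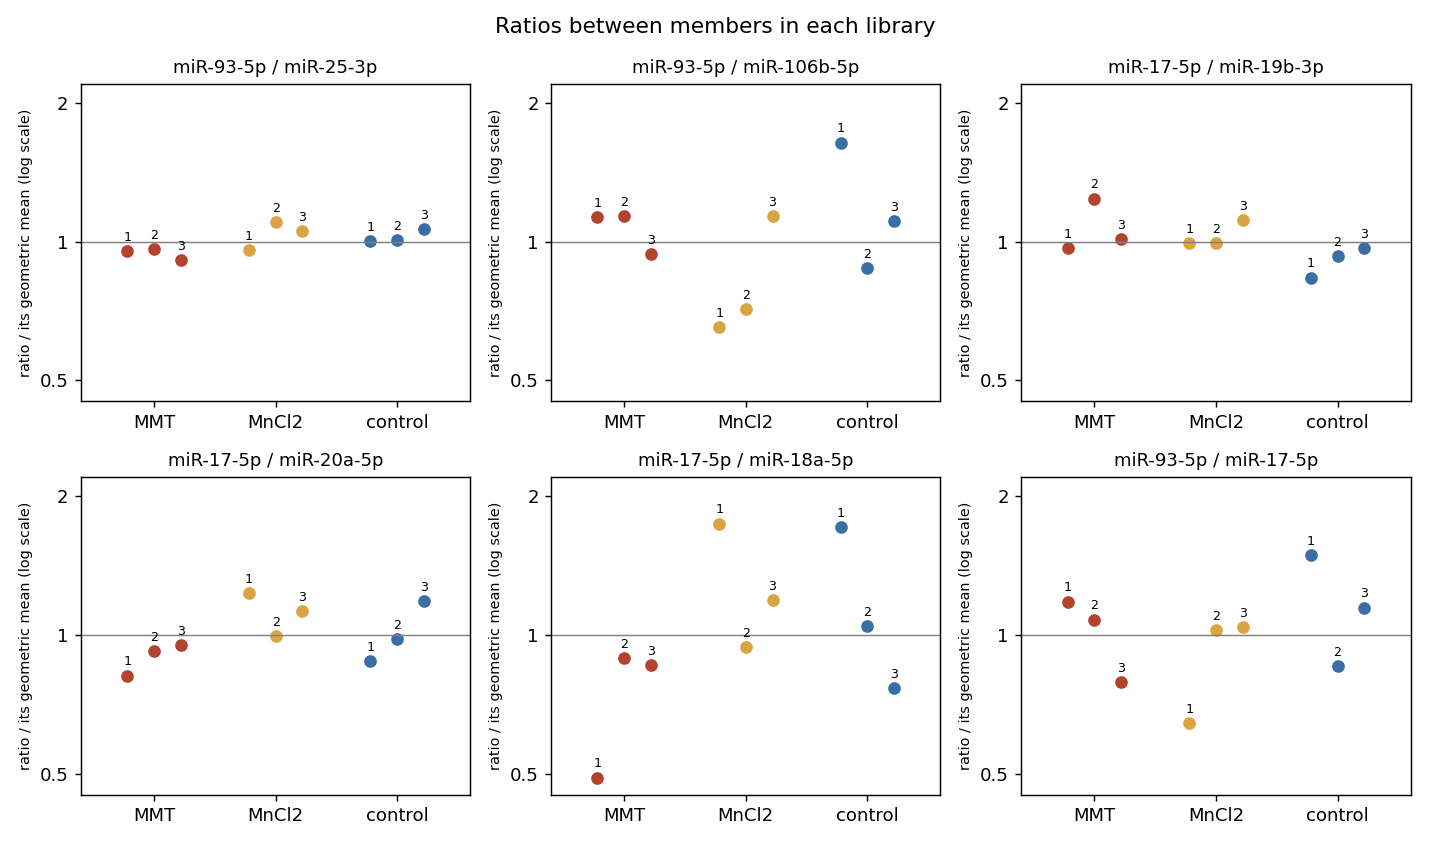
Count ratio of 6 pairs of members in each MMT, MnCl2 and control library, numbered by replicate and divided by the geometric mean over the 9 libraries (log axis). miR-93-5p to miR-25-3p stays between 2.23 and 2.70, while miR-93-5p to miR-106b-5p runs from 11.6 to 29.2.

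Summed by cluster, miR-17/92 members stood at 1407, 1300 and 1862 CPM in MMT, 2240, 1210 and 1505 in MnCl2 and 1383, 1535 and 1136 in control libraries. miR-106b/25 members stood at 2052, 1909 and 1968 CPM in MMT, 1985, 1534 and 2107 in MnCl2 and 2433, 1597 and 1629 in control libraries. The groups overlapped in both sums, and the 2 clusters did not peak in the same library. miR-17/92 was highest in MnCl2 1, the library with the highest endothelial and blood marker sums, and miR-106b/25 in control 1, the deepest library. The part of these markers and of depth in the sums was not tested. MnCl2 1 was the only library in which miR-17/92 exceeded miR-106b/25, with a ratio of miR-106b/25 to miR-17/92 of 0.886, against 1.04 to 1.76 in the other 8.

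Outside the members, the entries whose level was most like the miR-17/92 sum over the 9 libraries were miR-301a-3p (Pearson r of log2 CPM 0.969), miR-495 (0.948) and miR-151-5p (0.94), of 668 candidates averaging at least 50 CPM. For the miR-106b/25 sum they were miR-140-3p (0.937), miR-3596d (0.92) and let-7i-5p (0.918). miR-151-5p is complementary to miR-3586-3p over 21 bases and miR-3596d to let-7f-5p over 20, so the reads of each pair may be mixed if strand was not used. These are descriptions over libraries that differ in depth. The log2 total count had an r of 0.62 with the miR-106b/25 sum and of 0.189 with the miR-17/92 sum. Its r was 0.688 with miR-140-3p, 0.767 with miR-3596d and 0.792 with let-7i-5p. With miR-301a-3p, miR-495 and miR-151-5p it was 0.257, 0.326 and 0.293. The part of depth in these likenesses was not tested. The 2 sums had an r of 0.329 with each other.

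**Figure D4:**
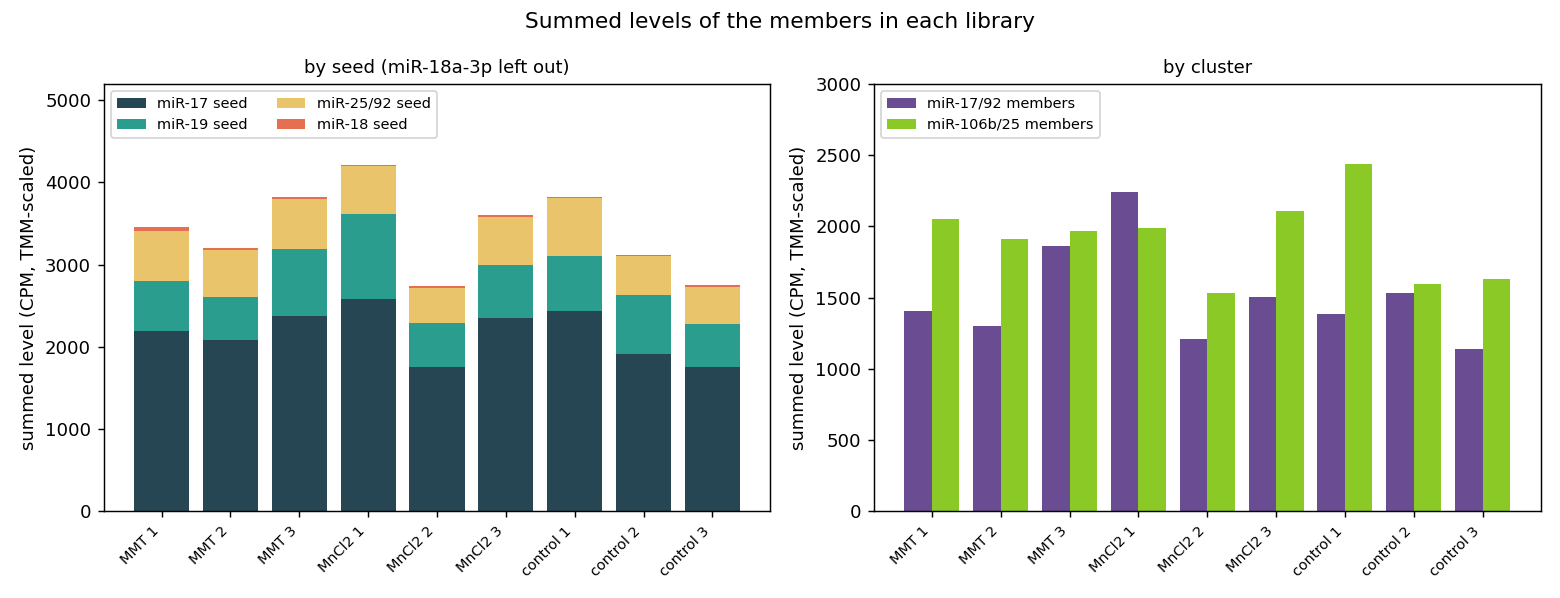
Summed level of the members in CPM in each library, left stacked by seed group (miR-18a-3p left out) and right by cluster. The miR-17 seed group makes up 61% to 65% of the members in every library, and MnCl2 1 alone has more miR-17/92 (2240 CPM) than miR-106b/25 (1985 CPM).

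The miR-18a hairpin was the one with both arms among the members. The 5p arm, the guide, had 117, 55 and 58 counts in the MMT, MnCl2 and control groups, and the 3p arm 16, 21 and 18. The 5p arm made up 92.6%, 70.4% and 92.3% of the hairpin's counts in the MMT libraries, 68.2%, 71.4% and 76.9% in the MnCl2 libraries and 100%, 66.7% and 68.2% in the control libraries. The narrowest exact (Clopper-Pearson) 95% interval of a library ran from 82.1% to 97.9% (MMT 1) and the widest from 45.1% to 86.1% (MnCl2 1 and control 3). MMT 1, MMT 3 and control 1 had the highest shares and were the 3 deepest libraries. Control 1 had 0 counts of miR-18a-3p, which allows a level of up to 1.67 CPM (3 counts), although it was the deepest of all, while the other 8 libraries ran from 2.84 to 10.8 CPM.

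The other arms of the cluster hairpins, mostly degraded once the guide is loaded, were also lowest in deep libraries. Of 12 listed, 11 were in the files and 9 passed the low-count filter. Together the 11 summed to 114, 195 and 59.0 CPM in MMT, 135, 157 and 139 in MnCl2 and 60.7, 132 and 158 in control libraries. MMT 3 and control 1, the 2 deepest libraries, had the lowest levels, at 59.0 and 60.7 CPM against 114 to 195 CPM in the other 7. The part of depth in these levels was not tested. By edgeR, none of the 9 passed in any comparison (adjusted p = 0.843 to 1), with 5 positive in MMT against control, 6 in MnCl2 against control and 3 in MMT against MnCl2.

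Arms of related hairpins outside the 2 clusters were scarce. Of 11 listed, 8 were in the files and 5 passed the filter, miR-20b-5p, miR-363-3p, miR-92b-5p, miR-32-5p and miR-32-3p. The most abundant was miR-32-5p, which has the seed of miR-25, at 48.6 ± 10.5 CPM in MMT, 65.5 ± 17.9 in MnCl2 and 39.8 ± 20.3 in control libraries (SD, n = 3 each). miR-20b-5p, of the X-linked copy of the cluster, was at 15.2 ± 12.9 CPM in MMT, 16.1 ± 1.68 in MnCl2 and 12.3 ± 6.8 in control libraries (SD, n = 3 each). None of the 5 passed the test by edgeR in any comparison (adjusted p = 0.843 to 1). With 122 counts for miR-20b-5p over all libraries and 489 for miR-32-5p, against 5523 for miR-17-5p and 5273 for miR-25-3p, these seeds were carried mainly by the members.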

How the data were processed

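Small RNAs of 15 to 45 nucleotides were cut from a gel and made into libraries with the QIAseq miRNA kit, per the labels' protocols. Reads were trimmed with Trimmomatic and the build was rn6, per the submitters' processing notes. The aligner is not given in the sources used here, nor whether strand and molecular identifiers were used. The authors deposited raw counts per entry, 1 column per library, so intervals from counts cover counting error only.

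The members and lists were chosen with earlier results of these data known. Groups and replicate numbers came from the titles. The main test was edgeR's robust quasi-likelihood fit (version 4.0.16, R 4.3.3) of all 9 libraries together, with TMM scaling and filterByExpr. It is two-sided, with Benjamini-Hochberg adjustment over the 1113 entries kept and a threshold of 0.05. All 10 members passed that filter. The biological coefficient of variation was 27.9%. SEs are the log2 fold change over the root of F, and fold intervals use the t distribution. log2 CPM used a prior count of 2. Named were all members, related entries fixed by list, and for each cluster sum the 3 entries most like it. Alternatives were scaling by RLE or totals, DESeq2 1.42.0, a filter of 10 CPM in 3 libraries or none, miRNAs alone, the 2 groups alone, the total count as covariate, the replicate block and each library left out. The fit was checked on simulated data. Python 3.11.15, scipy 1.17.1 and matplotlib 3.10.9 did the rest.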

Additional observations from a re-analysis of the deposited data

How the results depend on the processing

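Of 18 alternative settings, 1 (10 CPM in 3 libraries) kept the same entries and so tested nothing. Over the other 17, 464 of 508 member values kept their direction and none passed the test. The count of called entries was 0 under each, except 1 without the low-count filter in MnCl2 against control (the epithelial miR-200a-3p, named after its values were seen). The members' median ran from -0.05 to 0.28 in MMT against control, -0.08 to 0.34 in MnCl2 against control and -0.35 to 0.12 in MMT against MnCl2, each shift smaller than the SD between libraries, and its sign is not settled. miR-18a-5p in MMT against control (0.62 to 1.08; p under 0.05 in 5 of 17) and miR-106b-5p in MnCl2 against control (0.25 to 0.66; 4 of 17) kept their direction. The remaining 44 values reversed, and the cause was not tested. In MMT against control these were miR-19a-3p (-0.00 by library totals, -0.09 with miRNAs alone), miR-19b-3p (-0.02, -0.12, and -0.01 with the 2 groups alone), miR-93-5p (-0.11 with miRNAs alone, -0.01 without the filter) and miR-18a-3p (0.05 with the total as covariate). In MnCl2 against control, with miRNAs alone, they were miR-18a-3p (-0.01), miR-18a-5p (-0.11), miR-19a-3p (-0.06), miR-19b-3p (-0.09) and miR-20a-5p (-0.09), and with the total as covariate miR-25-3p (0.06) and miR-93-5p (0.06). In MMT against MnCl2 they were miR-17-5p (0.01 with miRNAs alone) and miR-93-5p (-0.02 with the covariate). With 1 library left out, values in MMT against control ran from -1.06 to 0.29 for miR-18a-3p, -0.12 to 0.33 for miR-19a-3p, -0.20 to 0.20 for miR-19b-3p, -0.30 to 0.10 for miR-92a-3p and -0.12 to 0.27 for miR-93-5p. In MnCl2 against control they ran from -0.44 to 0.86 for miR-18a-3p, -0.11 to 0.27 for miR-18a-5p, -0.05 to 0.46 for miR-19a-3p, -0.12 to 0.40 for miR-19b-3p, -0.05 to 0.34 for miR-20a-5p, -0.23 to 0.21 for miR-25-3p and -0.22 to 0.21 for miR-93-5p. In MMT against MnCl2 they ran from -0.36 to 0.15 for miR-17-5p, -0.34 to 0.10 for miR-19a-3p, -0.40 to 0.15 for miR-19b-3p and -0.06 to 0.16 for miR-93-5p.

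The labels do not say whether same-numbered libraries pair. Their deviations correlated from -0.666 to 0.493, over 0.1 in 4 of 9 pairs, which does not settle it. With the replicate block, 0 entries were called in each comparison, the members' medians were 0.11, 0.22 and -0.14, and the largest shift of a member was 0.32. miR-18a-5p, miR-18a-3p and miR-92a-3p rest on 0 to 50 counts a library, with SEs of 0.39 to 1.08, so small differences in them were not detectable at this depth.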
